A study of Arabidopsis thaliana with 24 samples.

Results

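Transcripts of 5 genes of the pentatricopeptide repeat family were examined, AT5G39980, AT3G51320, AT2G19280, AT1G31790 and OTP85 (AT2G02980), each read by 1 array probe annotated with that gene alone. They are 5 of the 691 genes that had a probe of their own, on a table of 3439 probes. The values that chose them were those of the comparison described below, so their differences between the genotypes are given as a description and without a test. Transcript levels in total RNA were compared between the sut2 mutant of Arabidopsis thaliana (12 columns) and the wild type, WT (12 columns), both of the Wassilevskija ecotype. SUT2 is a plasma membrane protein related to sucrose transporters, which the labels call a sensor or transporter, and the mutant lacks it. Columns were numbered 1 to 12 in each genotype. The sources used here give no tissue, age, growth condition or mutant allele. They also do not say if each column had its own plants, so the spread between columns may be technical. No single-gene probe was for SUT2, and none of the leaf, root, seed, flower or phloem markers looked for had a probe of its own (0 measured), so neither the loss of SUT2 nor the tissue could be checked.

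Pentatricopeptide repeat proteins are encoded in the nucleus and act mostly in chloroplasts and mitochondria. Each is a string of short helical repeats that reads a stretch of organelle RNA base by base, and members of the family are needed for intron splicing, for trimming and stabilizing transcript ends, for translation and for C-to-U editing. Members of the P class consist of the repeats alone, while those of the PLS class often carry extra domains at the end of the protein and include most of the known editing factors. The messages of these genes are usually scarce.

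Intensities were deposited on a linear scale, with a mean of 0.959 to 1.05 in each column. The median intensity of a column was 0.256 ± 0.020 in sut2 and 0.372 ± 0.032 in WT (SD, n = 12 columns each), and 148 to 273 values of a sut2 column and 146 to 238 of a WT column were listed at 0. Levels below are therefore also given as log2 intensities after quantile normalization. On that scale the median difference of all probes, sut2 minus WT, was 0.10, against -0.24 without normalization and 0.31 with median centring of the columns. Of all probes 34.8% passed an adjusted p of 0.05 (limma), 18.8% higher and 15.9% lower in sut2.

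The 5 genes did not move together. AT5G39980 and AT1G31790 were lower in sut2 at each of the 12 numbers, OTP85 was slightly lower, and AT2G19280 and AT3G51320 were higher. AT5G39980 stood at 5.78-fold less in sut2 than in WT. The 5 differences ran from -2.53 for AT5G39980 to 1.85 for AT3G51320 on the log2 scale, but 4 of the 12 WT values of AT3G51320 were listed at 0, and without the values at 0 its difference was 0.97. After normalization only AT5G39980 separated the genotypes completely, as the plot of levels by column shows.

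**Figure D1:**
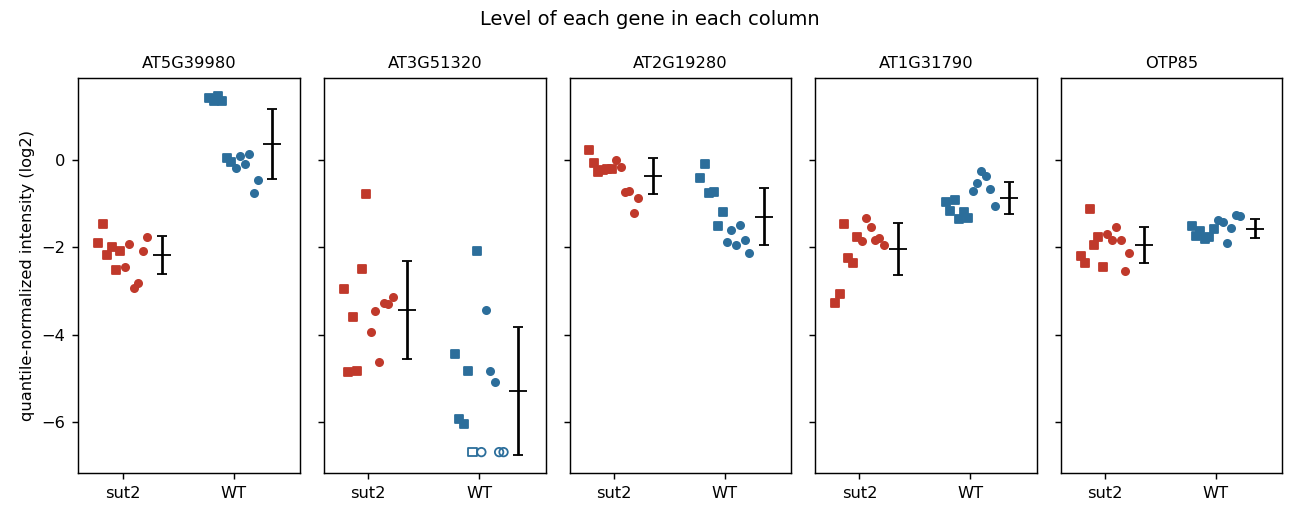
Quantile-normalized intensity (log2, vertical axis) of each of the 5 genes in the 12 sut2 columns (red) and the 12 WT columns (blue). Circles are numbers 7 to 12, squares are numbers 1 to 6, open symbols are values listed at 0 and set to the floor, and black bars are the mean ± SD; within a genotype columns run from number 1 on the left to 12 on the right. All 12 sut2 values of AT5G39980 lie below all 12 WT values, and the other 4 genes overlap.

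AT5G39980, also known as PDM3, is a P-class protein of the chloroplast that is needed for chloroplast development and for the splicing of plastid introns. Its intensity lay between 0.121 and 0.295 with a median of 0.201 in the sut2 columns, against 0.844 to 2.66 with a median of 1.08 in the WT columns. The highest sut2 column was thus well under the lowest WT column. After normalization the separation was also complete. A complete separation with sut2 lower was then seen at 2.06% of all probes, and the gene was chosen from this comparison. On the log2 scale it averaged -2.17 ± 0.43 in sut2 and 0.36 ± 0.80 in WT (SD, n = 12 columns), a difference of -2.53 ± 0.26 (SE). In WT the probe was brighter than most (percentile 87.6 of all probes), while in sut2 it was near the middle (percentile 40.6).

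The WT values of AT5G39980 fell into 2 levels. Numbers 1 to 4 read 2.49 to 2.66, and numbers 5 to 12 read 0.844 to 1.19. The sut2 columns overlapped, with 0.201 to 0.295 in numbers 1 to 4 and 0.121 to 0.249 in numbers 5 to 12. Their mean log2 level fell as well, from -1.88 ± 0.30 to -2.32 ± 0.42 (SD, n = 4 and n = 8 columns). The fall was larger in WT, from 1.39 ± 0.05 to -0.16 ± 0.31. Accordingly the log2 difference was -3.28 ± 0.34 over numbers 1 to 4 and -2.16 ± 0.62 over numbers 5 to 12 (SD of the differences, n = 4 and n = 8 numbers). This grouping of the numbers was chosen after the values were seen, and what sets it apart was not tested.

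AT1G31790 is a pentatricopeptide repeat protein whose target RNA is not stated here. Its intensity ranged from 0.0882 to 0.330 with a median of 0.222 in sut2, and from 0.442 to 0.908 with a median of 0.656 in WT. In deposited intensities the highest sut2 column stayed below the lowest WT column. The share of all probes that did so was not counted on that scale, where sut2 columns were dimmer (mean of column medians 0.256, against 0.372 in WT). After normalization 11 of the 12 sut2 columns lay below every WT column. The mean log2 level was -2.04 ± 0.60 in sut2 and -0.87 ± 0.37 in WT (SD, n = 12 columns), a difference of -1.17 ± 0.20 (SE), or 2.24-fold less. The exception was sut2 number 8, with a log2 value of -1.34 against -1.35 in the dimmest WT column. The dimmest sut2 values were those of numbers 1 and 2, at 0.0882 and 0.0951.

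OTP85 is a PLS-class protein with a DYW domain, the domain that carries the deaminase activity of editing, and is required for editing of a site in the chloroplast transcript ndhD, which encodes a subunit of the NDH complex. Its intensity was 0.131 to 0.408 in sut2 (median 0.216) and 0.302 to 0.593 in WT (median 0.389). After normalization the mean log2 level was -1.95 ± 0.41 in sut2 and -1.57 ± 0.21 in WT (SD, n = 12 columns), a difference of -0.38 ± 0.14 (SE), or 1.30-fold less. The genotypes overlapped: 6 of the 12 sut2 columns lay below every WT column, and 1 lay above every WT column. The SD in WT was among the smallest on the array (percentile 2.06 of all probes). Without normalization the difference was -0.94, and with probe position removed it was -0.26.

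AT2G19280 encodes a further pentatricopeptide repeat protein. Its intensity ranged from 0.361 to 1.08 with a median of 0.758 in sut2, and from 0.293 to 0.974 with a median of 0.404 in WT. The ranges overlapped widely, with 7 of the 12 WT columns below every sut2 column and 3 of the 12 sut2 columns above every WT column after normalization. The mean log2 level was -0.37 ± 0.42 in sut2 and -1.30 ± 0.66 in WT (SD, n = 12 columns), a difference of 0.93 ± 0.22 (SE), or 1.90-fold more, and of 0.52 without normalization. As for AT5G39980, the WT columns formed 2 levels, at 0.685 to 0.974 in numbers 1 to 4 and 0.293 to 0.482 in numbers 5 to 12. Here the brighter WT columns were those nearest to sut2, and the log2 difference was 0.42 ± 0.27 over numbers 1 to 4 and 1.18 ± 0.40 over numbers 5 to 12 (SD of the differences, n = 4 and n = 8 numbers).

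AT3G51320 was the dimmest of the 5 probes relative to the array (percentile 16.8 of all probes in sut2 and 6.05 in WT) and is likewise known here only by its family. Its intensity ranged from 0.0207 to 0.468 with a median of 0.0875 in sut2, and from 0 to 0.267 with a median of 0.0316 in WT. No sut2 value and 4 of the 12 WT values, at numbers 5, 7, 11 and 12, were listed at 0. After normalization the mean log2 level was -3.44 ± 1.12 in sut2 and -5.29 ± 1.47 in WT (SD, n = 12 columns), a difference of 1.85 ± 0.51 (SE). Number 6 was the brightest column in both genotypes, at 0.468 in sut2 and 0.267 in WT. With the values at 0 left out the difference was 0.97, and with a floor at the 5th percentile of positive values (an intensity of 0.0454) it was 0.81. No detection limit was at hand, so a dim value of this probe cannot be told from background.

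The genotypes were next compared number by number, sut2 minus WT, with columns of the same number taken as pairs, though no label says that they are. AT5G39980 differed by -3.62 to -1.30 on the log2 scale with a median of -2.69, and AT1G31790 by -2.31 to -0.44 with a median of -1.14. Both were lower at all 12 numbers, as were 8.29% of all probes. AT2G19280 differed by 0.027 to 1.87 with a median of 0.88 and was higher at all 12 numbers after normalization, as were 7.07% of all probes. In deposited intensities it was lower in sut2 at number 2 (0.860 against 0.974 in WT) and number 11 (0.361 against 0.383). AT3G51320 was higher at 10 numbers, equal at number 4 and lower at number 8 after normalization, with differences from -0.0094 to 4.19. In deposited intensities it was lower in sut2 at numbers 2, 4 and 8, with 0.0207 at number 4 against 0.0597 in WT. OTP85 was lower at 10 numbers and higher at numbers 3 and 9, by 0.51 and 0.37, with a lowest difference of -1.28. Its deposited intensity at number 3 was 0.408 in sut2 against 0.411 in WT.

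**Figure D2:**
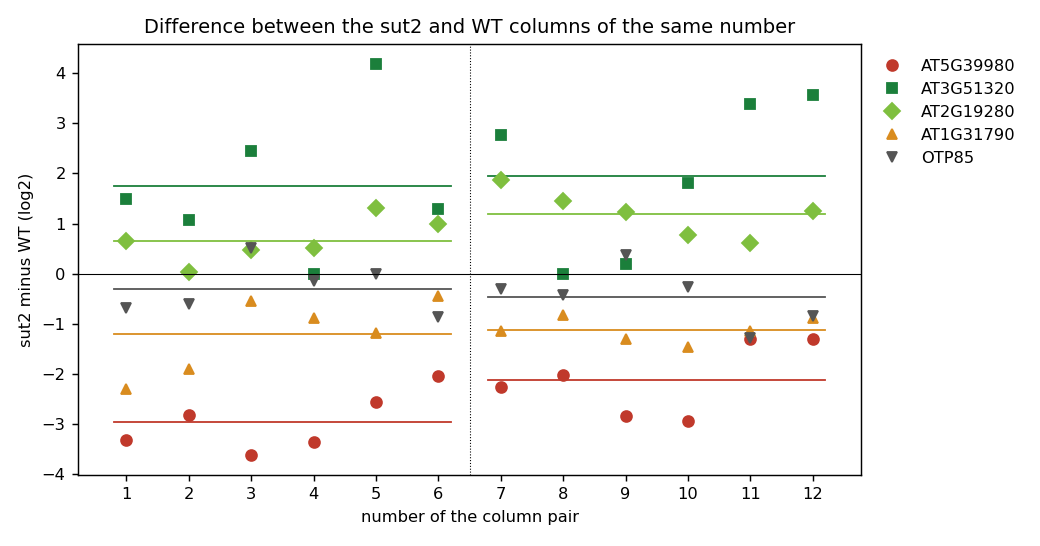
Difference between the sut2 and the WT column of the same number (log2 after quantile normalization, vertical axis) for each of the 5 genes over numbers 1 to 12 (horizontal axis). Horizontal lines are means over numbers 1 to 6 and over numbers 7 to 12. AT5G39980 is the lowest of the 5 at every number, and AT3G51320 spreads most widely, from -0.0094 to 4.19.

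AT5G39980 had the lowest difference of the 5 at all 12 numbers, and AT3G51320 the highest at 9 numbers and AT2G19280 at the other 3. The difference of AT2G19280 exceeded that of AT5G39980 by 1.92 to 4.13 and that of AT1G31790 by 1.01 to 3.02 on the log2 scale at every number. The gap between AT1G31790 and AT5G39980, both lower in sut2, was 1.37 ± 0.80 (SD, n = 12 numbers), with AT1G31790 the less reduced at each number, by as little as 0.18. The gap between AT3G51320 and AT2G19280, both higher in sut2, was 0.92 ± 1.42 and changed sign at 3 of the 12 numbers. The order of these 2 genes therefore did not hold against the spread over numbers. OTP85 and AT1G31790 lay 0.79 ± 0.68 apart, with OTP85 the less reduced at 10 numbers.

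Columns with consecutive numbers, 1 and 2, 3 and 4 and so on, were compared with other columns of the same genotype. The median gap in log2 level between consecutive columns was 0.25 for AT5G39980, 0.25 for AT1G31790, 0.28 for AT2G19280 and 0.21 for OTP85 (n = 12 column pairs). Between other columns it was 0.60, 0.46, 0.58 and 0.31 for the same genes in turn (n = 120 column pairs). For AT3G51320 it was 1.30 between consecutive columns, with a widest gap of 4.61, and 1.34 between others. Averaged over such pairs, the differences of AT5G39980 (-3.49 to -1.31) and AT1G31790 (-2.10 to -0.71) were lower in all 6 sets, against 13.4% of all probes. Those of AT2G19280 (0.34 to 1.66) and AT3G51320 (up to 3.47) were higher in all 6, against 15.6% of all probes, while OTP85 was lower in 4 of the 6 (-1.06 to 0.18).

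The numbers divide further into 1 to 6 and 7 to 12, a division seen in earlier results of these data. AT5G39980 differed by -2.11 over numbers 7 to 12, against -2.95 over numbers 1 to 6. AT2G19280 differed by 1.20 over numbers 7 to 12, against 0.66 over numbers 1 to 6. The other 3 genes were closer between the divisions, in the same order at -1.12 and -1.21 for AT1G31790, -0.46 and -0.30 for OTP85, and 1.95 and 1.75 for AT3G51320. A test of the difference between the divisions, which did not choose the genes, passed for none of the 5 (limma interaction term, adjusted p = 0.28 for AT5G39980, 0.38 for AT2G19280, and between 0.83 and 0.94 for the other 3). At an unadjusted p under 0.05 it picked out AT5G39980 alone (p = 0.048, limma, 0.84 ± 0.40 log2), as it did 17.4% of all probes, while 0.145% of all probes passed after adjustment. The SE of this term ran from 0.28 for OTP85 to 1.05 for AT3G51320, and dependence on the division was not detectable at that precision. The division also does not fall at the WT step of AT5G39980 and AT2G19280, which lies between numbers 4 and 5. A dependence on that step was not tested.

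The levels themselves shifted between the divisions within a genotype. In WT, AT5G39980 averaged -0.21 ± 0.35 in numbers 7 to 12 and 0.93 ± 0.72 in numbers 1 to 6 (SD, n = 6 columns), and AT2G19280 averaged -1.82 ± 0.23 and -0.78 ± 0.51. These shifts of -1.14 and -1.03 lay at percentiles 6.40 and 8.75 of all probes. In sut2 the same 2 genes shifted by -0.30 and -0.49, both downwards as in WT. AT1G31790 shifted the other way in both genotypes, by 0.64 in sut2 and by 0.56 in WT. OTP85 hardly moved, with shifts of 0.047 in sut2 and 0.20 in WT. The median size of the shift over all probes was 0.37 in sut2 and 0.54 in WT.

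Column-to-column likeness was measured as the correlation of deviations from the genotype means over the 24 columns, which removes the genotype difference but leaves what columns share by number. AT5G39980 and AT2G19280, whose genotype differences were opposite in sign, deviated together (Pearson r = 0.75, Spearman rho = 0.73). With the division means also removed r was 0.50, and over numbers 5 to 12 alone it was 0.17 (16 columns), so the likeness rested largely on numbers 1 to 4. The remaining 9 pairs among the 5 genes had r between -0.45 and 0.37. These columns are not independent of each other, so the coefficients are descriptions.

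Among the 691 other single-gene probes, the closest to each gene by this measure were as follows. AT1G31790 was matched best by AT5G50350 (r = 0.90, rho = 0.89). By genotype r was 0.90 in sut2 and 0.89 in WT, and with division means removed it was 0.85. AT5G50350 was picked from the 691 probes over these same columns, so these values are not separate support for the likeness. AT5G50350 was also dim, with a mean log2 level of -4.35 in sut2 and -3.11 in WT. The medians over all probes were -1.83 and -1.77. The log2 difference of AT5G50350 itself was -1.23 ± 0.50 (SE, limma adjusted p = 0.057). AT2G19280 was most like AT2G30100 (r = 0.86, or 0.65 with division means removed) and HEMA3 (r = 0.85, or 0.58), a glutamyl-tRNA reductase of tetrapyrrole synthesis, neither of which passed between the genotypes (0.43 ± 0.21, limma adjusted p = 0.12, and 0.14 ± 0.21, limma adjusted p = 0.62). AT5G39980 was most like AT4G14380 (r = 0.79, or 0.55 with division means removed) and AT5G55580 (r = 0.76, or 0.47), an mTERF-family protein of organelle gene expression that rose by 0.85 ± 0.16 in sut2 (limma adjusted p = 0.00025). Within WT r with AT5G39980 was 0.82 for AT4G14380 and 0.83 for AT5G55580, and within sut2 it was 0.69 and 0.45. The second-best match of AT1G31790 was AT3G04560 (r = 0.75, or 0.52). AT3G51320 was most like AT5G19370 (r = 0.68, rho = 0.35) and AT1G20130 (r = 0.54, rho = 0.23), with r of 0.70 and 0.52 once division means were removed. Both matches were dim, and a value set to the floor reads -6.69 on the log2 scale. The mean log2 level of AT5G19370 was -5.82 in sut2 and -5.56 in WT, and that of AT1G20130 was -6.45 and -6.16. With levels so near the floor, these coefficients are not read as a shared pattern. OTP85 was most like AT2G39000 (r = 0.63, rho = 0.43) and AT2G48090 (r = 0.61, rho = 0.58), with r of 0.67 and 0.62 once division means were removed. Within sut2 r was 0.73 for each, but within WT it was 0.27 for AT2G39000 and 0.45 for AT2G48090.

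The order of probe numbers was examined through the 20 probes with the nearest numbers. Whether this order follows the layout of the array was not checked. The median difference of these neighbours had the sign of the gene's own difference in each case, at -0.23 around AT5G39980, 0.17 around AT3G51320, 0.39 around AT2G19280, -0.35 around AT1G31790 and -0.38 around OTP85. For OTP85 the neighbours moved as far as the gene itself (-0.38). The probes of OTP85 and AT1G31790 have nearly adjacent numbers and share most of these neighbours. A running median over 51 probes in order of number was also subtracted in each column, which is called probe position removed here. The differences were then -2.16 for AT5G39980, -1.02 for AT1G31790, -0.26 for OTP85, 0.70 for AT2G19280 and 1.96 for AT3G51320.

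**Figure D3:**
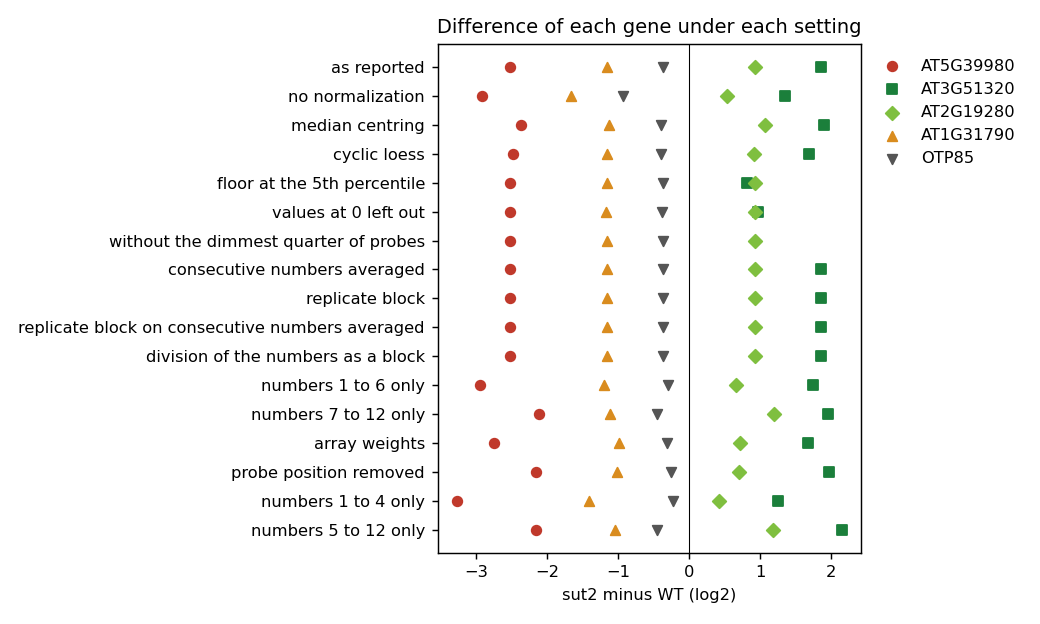
Log2 difference, sut2 minus WT (horizontal axis), of each of the 5 genes as reported and under each other setting (rows). No symbol crosses 0. AT3G51320 moves most, from 0.81 with a floor at the 5th percentile to 2.15 in numbers 5 to 12, and has no value where the dimmest probes are left out. Rows with consecutive numbers averaged or with a block repeat the reported values, since they cannot change a difference of means here.

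The family was also looked at as a whole. Of the genes with a probe of their own, 19 were listed as pentatricopeptide repeat genes from background knowledge of their locus names, the 5 above among them, since the annotation gives no descriptions. AT2G30100, whose family was uncertain, was left out. Differences of the 19 had a median of 0.24, against 0.10 over all probes, and a median size of 0.42, against 0.45 over all probes. At an adjusted p of 0.05 (limma), 6 were higher, 3 lower and 10 did not pass, so 9 of 19 were called where 34.8% of all probes were. The count was 4 higher and 2 lower with the number as a block, where 1477 of the 3439 probes were called. It was 1 and 2 with consecutive numbers averaged, where only 449 probes were called. With both it was 2 and 2, where 759 probes were called. The 5 genes, taken from this list for their values, make up 2 of the 6 and all 3 of the lower ones. The direction also moved with the scaling. Without normalization 2 were higher and 4 lower, where 173 of all probes were higher and 1016 lower. With median centring 8 were higher and 3 lower, where 1053 of all probes were higher and 506 lower.

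**Figure D4:**
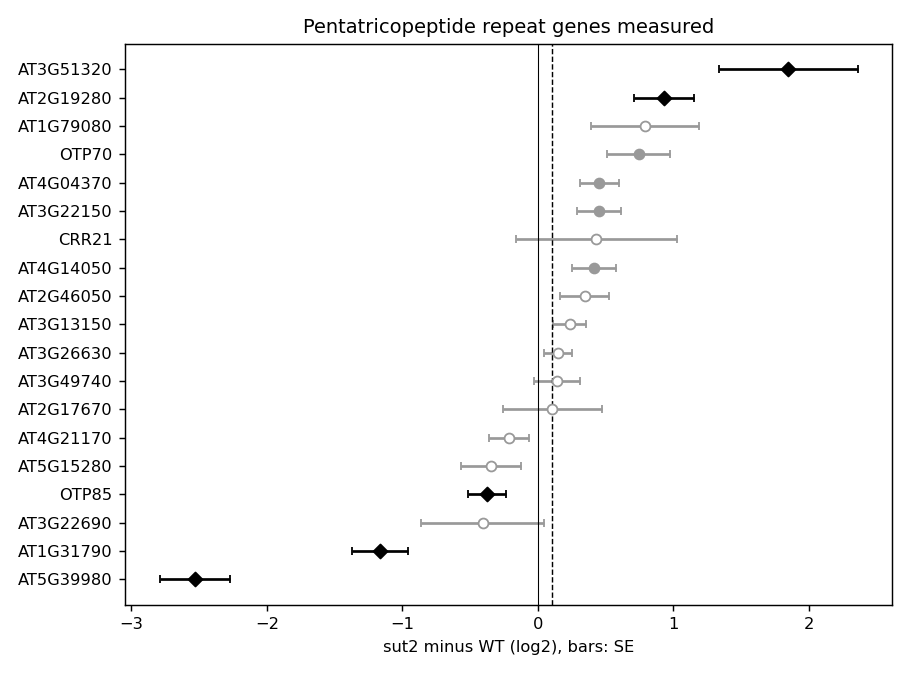
Log2 difference, sut2 minus WT, with its SE (horizontal axis) for the 19 pentatricopeptide repeat genes. Diamonds are the 5 genes chosen for their values, circles the other 14, filled symbols have a limma adjusted p under 0.05, and the dashed line is the median of all probes at 0.10. The fill of a diamond is not a test of that gene, since this comparison chose it. The circles lie between -0.41 and 0.79, inside the range of the diamonds.

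Picking the 5 had removed all 3 lower genes from the list. Of the 14 that remained, 4 rose and none fell by limma (0 also at an unadjusted p under 0.05), where 18.8% of all probes were higher and 15.9% lower. Without normalization 1 rose and 1 fell, where 173 of all probes were higher and 1016 lower. With array weights 2 rose and 1 fell, where 536 of all probes were higher and 483 lower. OTP70, a PLS-class protein needed for splicing of the plastid rpoC1 intron, averaged -0.47 ± 0.22 in sut2 and -1.21 ± 0.78 in WT (SD, n = 12 columns) and rose by 0.74 ± 0.23 (SE, limma adjusted p = 0.016). It did not pass with probe position removed (0.52, limma adjusted p = 0.070), where its 20 neighbours had a median difference of 0.46, or with array weights (0.51, limma adjusted p = 0.053). AT4G04370 rose by 0.45 ± 0.15 (limma adjusted p = 0.018). AT3G22150, an editing factor known as AEF1 or MPR25 that acts on a chloroplast atpF site, rose by 0.45 ± 0.16 (limma adjusted p = 0.037, 0.070 with the number as a block). AT4G14050, a mitochondrial editing factor, rose by 0.42 ± 0.16 (limma adjusted p = 0.047, 0.093 with the number as a block). With consecutive numbers averaged none of the 4 passed (limma adjusted p from 0.10 to 0.24), and without normalization their differences were -0.050 to 0.35 and none passed. The call of AT4G14050 was lost without any 1 of 16 columns (limma adjusted p from 0.053 to 0.083) and that of AT3G22150 without any 1 of 7 (limma adjusted p from 0.051 to 0.065). AT4G04370 differed by 0.070 with probe position removed, where its 20 neighbours in number had a median difference of 0.52.

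The 10 genes that did not pass included further factors of chloroplast editing. CRR21, which is needed for editing of another site of ndhD, had a log2 difference of 0.43 ± 0.60 (SE), with 2 WT values listed at 0, and of -0.47 without the values at 0 (limma adjusted p = 0.057). AT3G22690, known as YS1 and needed for editing of the plastid rpoB transcript, had a difference of -0.41 ± 0.46. The brightest family members, AT3G13150 and AT3G26630, stood at mean log2 levels of 2.88 ± 0.25 and 2.07 ± 0.22 in sut2, against 2.65 ± 0.29 and 1.93 ± 0.22 in WT (SD, n = 12 columns). Their differences of 0.24 ± 0.12 and 0.15 ± 0.11 did not pass, but did with median centring (1.04, limma adjusted p = 1.05e-06, and 0.82, limma adjusted p = 3.20e-05). AT3G13150 also passed without normalization (0.50, limma adjusted p = 0.0013) and with array weights (0.35, limma adjusted p = 0.026). The remaining ones were AT1G79080 (0.79 ± 0.40), AT2G46050 (0.34 ± 0.18, and 0.44 with a limma adjusted p of 0.049 without WT number 4), AT3G49740 (0.14 ± 0.17), AT2G17670 (0.10 ± 0.37), AT4G21170 (-0.21 ± 0.15) and AT5G15280 (-0.35 ± 0.22). AT5G15280 passed as lower without normalization (-0.83, limma adjusted p = 0.0052) and with array weights (-0.55, limma adjusted p = 0.036). AT2G46050 passed as higher in numbers 7 to 12 alone (0.62, limma adjusted p = 0.049) and with probe position removed (0.47, limma adjusted p = 0.037). Of the partner proteins of organelle RNA that were looked for, such as the MORF editing factors and the plastid sigma factors, none had a probe of its own (0 measured).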

How the data were processed

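The authors deposited 1 table of linear intensity values, 3439 probes by 24 columns (12 per genotype), assigned from the titles in the labels. The sources used here state neither the making of the intensities, nor the dye of a column, nor a detection limit; the number of arrays limits precision. Gene names are those of the platform annotation, which may be outdated (692 probes with 1 gene, 870 with several, 1877 with none; 690 matched to TAIR10.1 gene numbers). No build is named for the probes, so no coordinates are given, and no probe or protein sequence was used here.

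Values below the 1st percentile of positive values (0.00971) were raised to that percentile before log2, and columns were quantile-normalized. limma 3.58.1 in R 4.3.3 (lmFit, eBayes) was fitted to all probes with genotype as the only term, two-sided, with Benjamini-Hochberg adjustment and a threshold of 0.05. The interaction fit added the division of the numbers (1 to 6, 7 to 12) and its product with genotype. Both fits were tested on simulated data with independent noise in each column. That noise lacks the correlation between columns seen here, so the test does not cover its effect on the calls. Columns of the same number correlated in their deviations by 0.14 to 0.40 (12 of 12 above 0.1). Columns of different numbers were not compared across the genotypes, so these values do not show that same-numbered columns are pairs. Within a genotype, columns of consecutive numbers correlated with a median of 0.32. Pairing by number is therefore an assumption, which the fit with genotype alone did not use.

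The genes and lists were chosen with earlier results of these data known, and the 19 family members were listed by locus name, from background knowledge, after the annotation was read. Genes named are the 5, the other 14 family members, and for each of the 5 the 2 single-gene probes of highest Pearson correlation.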

Additional observations from a re-analysis of the deposited data

How the results depend on the processing

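The differences of the 5 genes kept their sign under every setting run (15 or 16 settings each) and with any 1 of the 24 columns left out. Settings that averaged consecutive numbers or added a block cannot change a difference of means here, so they could not turn a sign. The floor at the 5th percentile changed AT3G51320 only, and leaving out the dimmest probes changed none of the others. The genes were also chosen from this comparison. With 1 column left out they ran from -2.64 to -2.44 for AT5G39980, 1.61 to 2.14 for AT3G51320, 0.85 to 1.04 for AT2G19280, -1.23 to -1.05 for AT1G31790 and -0.45 to -0.32 for OTP85. Without normalization AT1G31790 was at -1.67 and OTP85 at -0.94, with 173 probes called higher and 1016 lower and 2 family members called higher; median centring called 1053 probes higher. Consecutive numbers averaged gave 449 probes (185 higher, 264 lower) and 1 family member higher. The replicate block on these averages gave 759 probes (354 higher) and 2 family members higher, while the replicate block on single columns gave 1477 probes, with 4 family members higher and 2 lower, and changed no interaction call. Numbers 1 to 6 alone gave 663 probes (305 higher, 358 lower) and 0 family members higher (2 at an unadjusted p under 0.05, limma). Numbers 1 to 4 alone, a setting chosen after seeing the data, gave 384 probes (163 higher, 221 lower), 0 family members higher (1 at an unadjusted p under 0.05, limma), 1 lower, and -3.28 for AT5G39980; fewer columns entered these fits.

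Signs turned in the following cases, and the cause was not tested. The interaction was -0.0011 for AT1G31790 without normalization, -0.17 for AT3G51320 with a floor at the 5th percentile and 0.17 for OTP85 with probe position removed, a setting also chosen after seeing the data. Without normalization AT2G17670 was at -0.33, AT2G46050 at -0.14, AT3G22150 at -0.050, AT3G49740 at -0.36, AT4G04370 at -0.040 and CRR21 at -0.047. AT4G21170 was at 0.16 with median centring, AT2G17670 at -0.093 with array weights and from -0.0046 (without WT number 12) to 0.44 with 1 column left out, and AT3G26630 at -0.23 with position removed. CRR21 was at -0.47 without the values at 0, -0.42 in numbers 7 to 12 and -0.28 in numbers 5 to 12. In numbers 1 to 6 AT3G22150 was at -0.014 and AT3G49740 at -0.18. In numbers 1 to 4 AT2G46050 was at -0.15, AT3G22150 at -0.22, AT3G22690 at 0.28, AT3G26630 at -0.043 and AT3G49740 at -0.36. The call of AT4G14050 was lost without any 1 of WT numbers 3, 4 and 7 to 12 and sut2 numbers 1 to 4 and 9 to 12, and that of AT3G22150 without any 1 of WT numbers 8, 10, 11 and 12 and sut2 numbers 7, 8 and 9.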
